A study of Drosophila melanogaster with 6 samples.

Results

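FGF signaling in Drosophila is built from few parts, and 6 genes encode the ones specific to it: the ligands branchless (bnl), pyramus (pyr) and thisbe (ths), the receptors breathless (btl) and heartless (htl), and the intracellular adaptor stumps, also called dof. They were chosen by symbol and not by a rule on their values, although earlier results of these data were known. All 6 were found among the 14239 genes of the deposited table. Bnl is the ligand of Btl, a receptor tyrosine kinase known for tracheal branching, and in the wing disc it directs the growth of the air sac primordium. Pyr and Ths are the ligands of Htl, the receptor of mesoderm and muscle precursors, including the adult muscle precursors that lie under the notum of the wing disc. Stumps is needed downstream of both receptors, which signal through the Ras/ERK cascade shared with other receptor tyrosine kinases.

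The study compared mRNA of the regeneration blastema with that of undamaged wing pouch. Every animal carried 1 copy of nub-GFP, an insertion in nubbin that labels the pouch, together with rn-Gal4 and the temperature-sensitive repressor GAL80ts. The ablated group also carried UAS-rpr, so that the pro-apoptotic gene rpr was expressed in the rn domain, whereas the control group lacked UAS-rpr and was mock-ablated. Larvae were reared at 18 °C, shifted to 30 °C for 24 h early in the third larval instar, and dissected after 24 h of recovery (R24), and GFP-positive cells were then sorted. Each group had 3 replicates, and each replicate pooled many discs and several days of dissection. The rn-Gal4 domain covers most but not all of the pouch, and nub-GFP defines which cells were kept, so the profile holds whatever was sorted as GFP-positive. The deposited table gives 1 FPKM per gene and group (fragments scaled by transcript length and library size), as the authors' value over the replicates. Group values alone were compared here, so spread between replicates and reads behind a gene are not given, and no test was made. The table's own test results were not used. Differences are described by a log2 ratio, ablated FPKM over control FPKM, and a gene is called past the threshold at a log2 ratio of at least 1.3 or at most -1.3, the size the study used.

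Summed over the table, FPKM came to 889990 in the ablated group and 1081834 in the control group, a scale difference that would add 0.28 to every log2 ratio if both groups were set to the same total. The labelled pouch identity was visible in both groups: the pouch gene nub had 51.8 FPKM in the ablated group and 89.9 FPKM in the control group, and vg, the wing selector, had 41.8 FPKM in the ablated group and 71.0 FPKM in the control group. Of 6 pouch markers, 5 had lower values in the ablated group, with a median log2 ratio of -0.74, and 0 were past the threshold. Of all genes above 0 FPKM in both groups, 56.3% had higher values in the ablated group and 2.6% were past the threshold as lower.

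All 6 FGF genes had higher values in the blastema than in control wing pouch cells. The log2 ratios ran from 1.09 for bnl to 4.59 for htl, with a median of 1.49, against a median of 0.10 over the 11709 genes above 0 FPKM in both groups. Of the 6 genes, 4 were past the threshold as higher (htl, stumps, btl and ths) and 0 as lower, whereas 12.5% of the 11709 genes were past it as higher and 2.6% as lower. At a log2 ratio of at least 1.0 the count was 6 of 6, against 17.8% of all genes. The receptor and adaptor genes had the 3 largest ratios, and the ligand genes the 3 smallest.

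**Figure D1:**
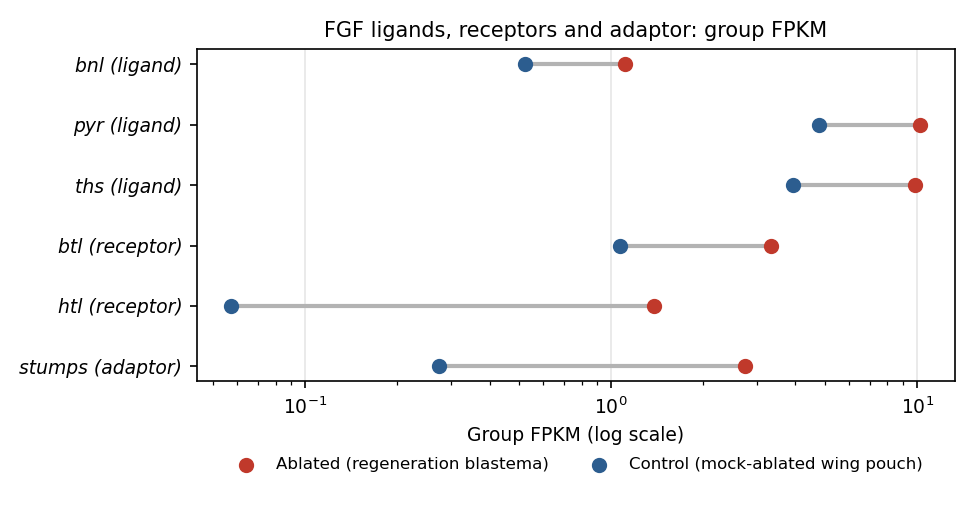
Group FPKM (log axis) of the 6 FGF genes, with red points for the ablated group and blue points for the control group, each 1 authors' value over 3 replicates with no error available. Each red point lies to the right of its blue point, and the gap is widest for htl (1.38 FPKM against 0.057 FPKM) and stumps (2.74 FPKM against 0.27 FPKM).

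Low values matter in reading these ratios. Genes with a low FPKM tended to be higher in the blastema, as the cloud of all genes shows at its lower end. When at least 1 FPKM was required in the higher group, 5.73% of 8694 genes were past the threshold as higher. By that filter bnl, htl and stumps were kept only through their ablated value, so their passing says nothing more than the values do. Each gene was therefore also set beside the genes of similar mean FPKM, in 20 bins with 5% of the genes each.

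**Figure D2:**
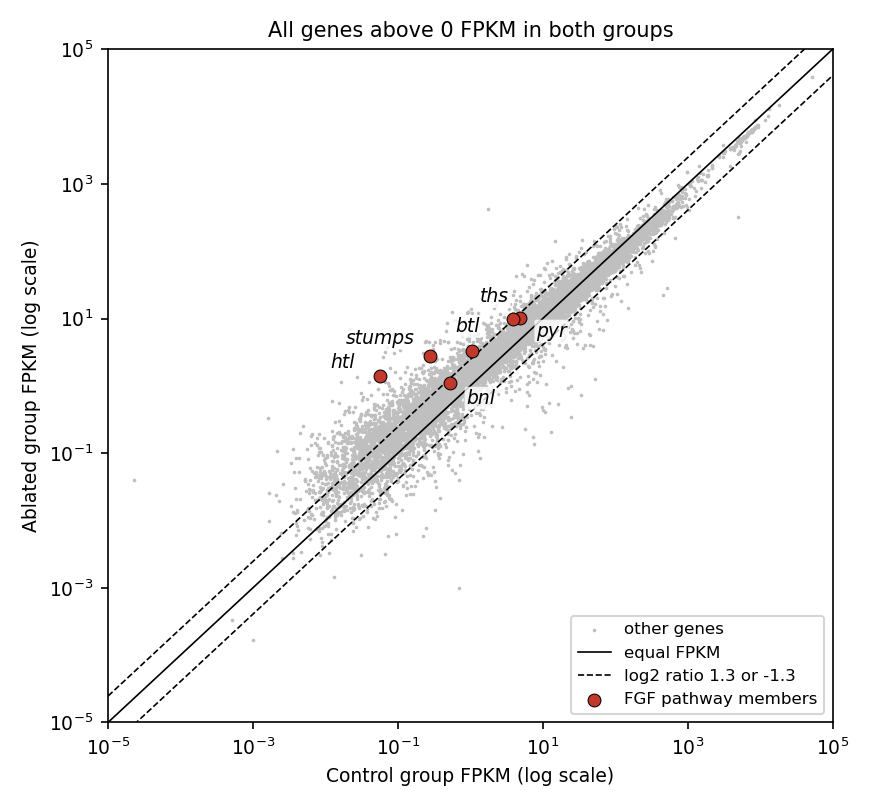
Control FPKM (x) against ablated FPKM (y), both on log axes, for the 11709 genes above 0 in both groups (grey) and the 6 FGF genes (red); the solid line marks equal values and the dashed lines log2 ratios of 1.3 and -1.3. The points of htl and stumps lie far above the upper dashed line, those of btl and ths just above it, and those of pyr and bnl between it and the line of equal values.

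Among the receptors, htl stood out by ratio and not by level. The gene htl (chromosome 3R, 13870935 to 13878706, release 5 of the genome) had 1.38 FPKM in the ablated group and 0.057 FPKM in the control group, a log2 ratio of 4.59. This is a 24.0-fold difference, ranked 27 among the 11709 genes. Its level lay at percentile 29.9 of these genes in the ablated group and at percentile 8.46 in the control group, so htl mRNA was scarce in the pouch and remained at a low level in the blastema. Of the 585 genes with a mean between 0.71 and 1.21 FPKM, which had a median log2 ratio of 0.68, 0.342% had a ratio at least as high as that of htl, itself included. The value depends on how small FPKM are handled. With 1 FPKM added to both groups the log2 ratio of htl was 1.17, under the threshold.

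The receptor gene btl (chromosome 3L, 14064991 to 14075985, release 5) had 3.33 FPKM in the ablated group and 1.07 FPKM in the control group, a log2 ratio of 1.64. In its bin of similar mean FPKM, 6.997% of genes had a ratio at least as high, and the median was 0.43. Its log2 ratio was 1.07 with 1 FPKM added to both groups and 1.21 with the median of the bin subtracted, both under the threshold. The table gives btl a locus shared with 1 other gene, and its values are uncertain to that extent.

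The levels of both receptors were nearer to each other in the blastema. The FPKM of btl was 2.42 times that of htl in the ablated group and 18.7 times in the control group. Together the receptors summed to 4.71 FPKM in the ablated group and 1.13 FPKM in the control group.

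The adaptor gene stumps (chromosome 3R, 10402940 to 10433804, release 5) had 2.74 FPKM in the ablated group and 0.27 FPKM in the control group, a log2 ratio of 3.32 or a 9.98-fold difference. It ranked 135 among the 11709 genes, and 1.71% of genes of similar mean FPKM had a ratio at least as high. With 1 FPKM added to both groups its log2 ratio was 1.55, lower but still past the threshold, as it was under each of the other scalings shown in the plot of scalings. The FPKM of stumps was 0.58 times the summed FPKM of both receptors in the ablated group and 0.24 times in the control group.

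The ligands of Htl were the most abundant of the 6 mRNAs in both groups. The gene pyr (chromosome 2R, 7599766 to 7613850, release 5) had 10.2 FPKM in the ablated group and 4.79 FPKM in the control group, a log2 ratio of 1.095 that is under the threshold. The gene ths (chromosome 2R, 7677873 to 7699520, release 5) had 9.88 FPKM in the ablated group and 3.91 FPKM in the control group, a log2 ratio of 1.34, just past it. Of the 586 genes of similar mean FPKM, which had a median log2 ratio of 0.14, 3.58% were past the threshold as higher, 5.46% had a ratio at least as high as that of pyr and 3.24% one at least as high as that of ths. Relative to genes of their level both ligands were thus in the upper range, although their log2 ratios straddle the threshold by a small margin. That of ths was 1.15 with 1 FPKM added to both groups and 1.19 with the median of the bin subtracted, both under it.

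The values of pyr and ths were similar to each other in both groups. The ratio of pyr to ths FPKM was 1.04 in the ablated group and 1.22 in the control group. They lie 64022 bases apart on the same chromosome arm, and the 3 genes listed between them had at most 0.11 FPKM in either group. The release 6 annotation gives ths a span of 57608 bases, against 21648 bases in the release used for the values, so part of the current gene model was not measured as ths here.

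Set against their receptor, the Htl ligands were in less excess in the blastema. The FPKM of pyr and ths summed to 20.1 in the ablated group and 8.71 in the control group, which is 14.6 times the FPKM of htl in the ablated group and 152 times in the control group. Since the control value of htl is very small, the control ratio is imprecise.

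The Btl ligand gene bnl (chromosome 3R, 15619794 to 15662539, release 5) had 1.11 FPKM in the ablated group and 0.52 FPKM in the control group, a log2 ratio of 1.09. It had the lowest level of the 6 genes in the blastema. Of the 585 genes in its bin, the same as that of htl, 31.5% had a ratio at least as high and 23.8% were past the threshold, so the difference in bnl was of a size common at this level. With the median of the bin subtracted, its log2 ratio was 0.41. The FPKM of bnl was 0.33 times that of its receptor btl in the ablated group and 0.49 times in the control group, the opposite arrangement to the Htl side, where ligand mRNA exceeded receptor mRNA.

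The order of levels in the ablated group, from high to low, was pyr, ths, btl, stumps, htl and bnl. In the control group it was pyr, ths, btl, bnl, stumps and htl. The highest of the 6 levels was 9.23 times the lowest in the ablated group and 83.6 times in the control group. With no spread between replicates it cannot be said which neighbours in either order differ, and the near-equal pair pyr and ths in particular is not ordered by these data.

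**Figure D3:**
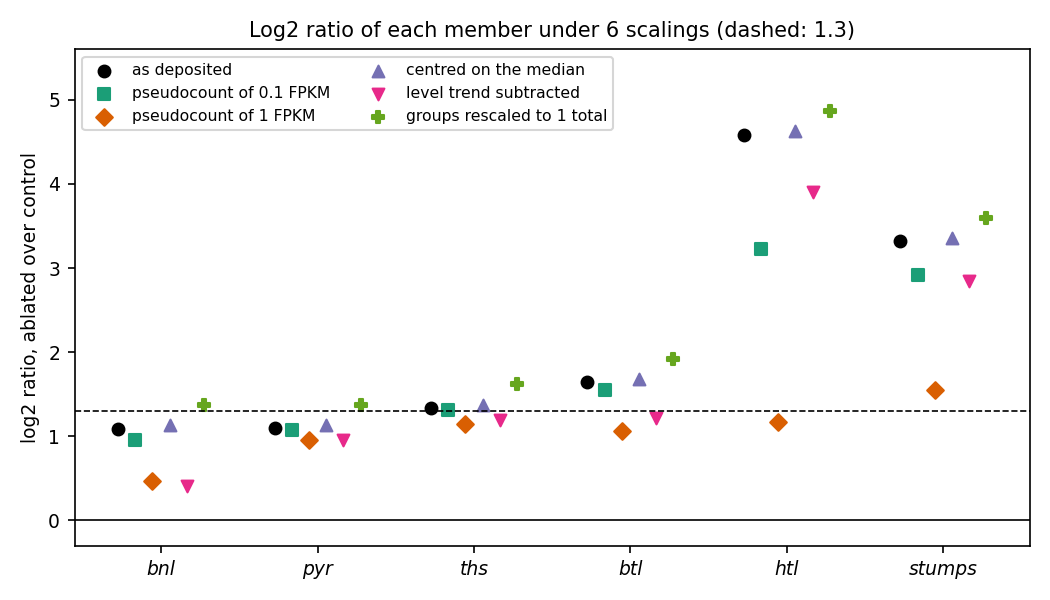
Log2 ratio, ablated over control FPKM, (y) of each FGF gene (x) as deposited and under 5 other scalings, with the threshold of 1.3 dashed. All 36 values are above 0; stumps stays above the dashed line throughout, htl falls under it with a pseudocount of 1 FPKM, btl and ths with that pseudocount and with the level trend subtracted, and bnl and pyr pass it only when the groups are rescaled to 1 total.

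The values nearest to those of an FGF gene were sought by distance on the log2 scale of both group values, with 0.1 FPKM added. Nearest to htl were CG9572 (1.64 FPKM in the ablated group and 0.054 FPKM in the control group), the cuticle protein gene Cpr76Bc and CG13315. Nearest to stumps were Osi15, a gene of the Osiris family with 3.13 FPKM in the ablated group and 0.31 FPKM in the control group, CG15155 and the cytochrome P450 gene Cyp18a1, which acts in ecdysteroid inactivation. Nearest to btl were the tetraspanin gene Tsp33B, the odorant receptor gene Or9a and CG32392, and nearest to bnl were CG10512, the calcium channel gene cac and CG34189. The distances were 0.23 to 0.29 for the genes near htl and stumps and 0.03 to 0.06 for those near btl and bnl. They rest on 2 group values each, so they describe like levels and no more.

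Genes near the FGF genes in the genome were also examined. Of 35 genes within 20 kb of an FGF gene and outside its own locus, 16 had at least 1 FPKM in a group, and their median log2 ratio was 0.22. Past the threshold were 3 of the 16 (18.8%, against 5.73% of all genes under the same filter), all as higher: CG8100 near btl (1.95 FPKM in the ablated group and 0.77 FPKM in the control group), and CG7886 and CG8066 near stumps (log2 ratios of 1.62 and 1.68). All 3 were under 1 FPKM in the control group and met the filter only through their ablated value. Of genes with a mean between 1.21 and 2.10 FPKM, 17.3% were past the threshold as higher. The count of 3 is thus not read as a feature of these loci. Of the 19 neighbours under 1 FPKM in both groups, 15 were above 0 FPKM in both and 6 of these were past the threshold as higher. Ratios of this size were common at low levels. Past the threshold as higher were 12.5% of all genes above 0 FPKM in both groups, and 23.8% of those with a mean between 0.71 and 1.21 FPKM. The count of low neighbours is likewise not read as such a feature. The single neighbour of htl, CG7794, had a log2 ratio of 0.27.

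Btl and Htl were then placed among 19 receptor tyrosine kinase genes. Of the 18 above 0 FPKM in both groups, htl had the highest log2 ratio and btl the fourth highest. Apart from htl and btl, 3 of 16 receptor genes were past the threshold as higher, each from 1 FPKM or less in the control group. Of all genes, 12.5% were past it as higher, a share that was larger at low FPKM. The gene sev, for the receptor of photoreceptor fate, had 0.43 FPKM in the ablated group and 0.018 FPKM in the control group. The gene tor, for the receptor of embryonic termini, had 0.56 FPKM in the ablated group and 0.075 FPKM in the control group. The discoidin domain receptor gene Ddr had 2.54 FPKM in the ablated group and 0.99 FPKM in the control group. Cuffdiff had too few reads to test sev, and tor and Ddr share a listed locus with 3 and 4 other genes. Among the abundant receptors the ratios were smaller. Egfr, the EGF receptor, had 49.2 FPKM in the ablated group and 40.1 FPKM in the control group. Pvr, the PDGF/VEGF receptor, had 22.2 FPKM in the ablated group and 23.4 FPKM in the control group. The lowest log2 ratio of the class, -0.73, was that of drl, a Wnt5 receptor gene, with 38.7 FPKM in the ablated group and 64.2 FPKM in the control group. In the blastema btl ranked 11 and htl 15 of the 19 genes by level, so both FGF receptors stayed among the less abundant receptors of the class.

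**Figure D4:**
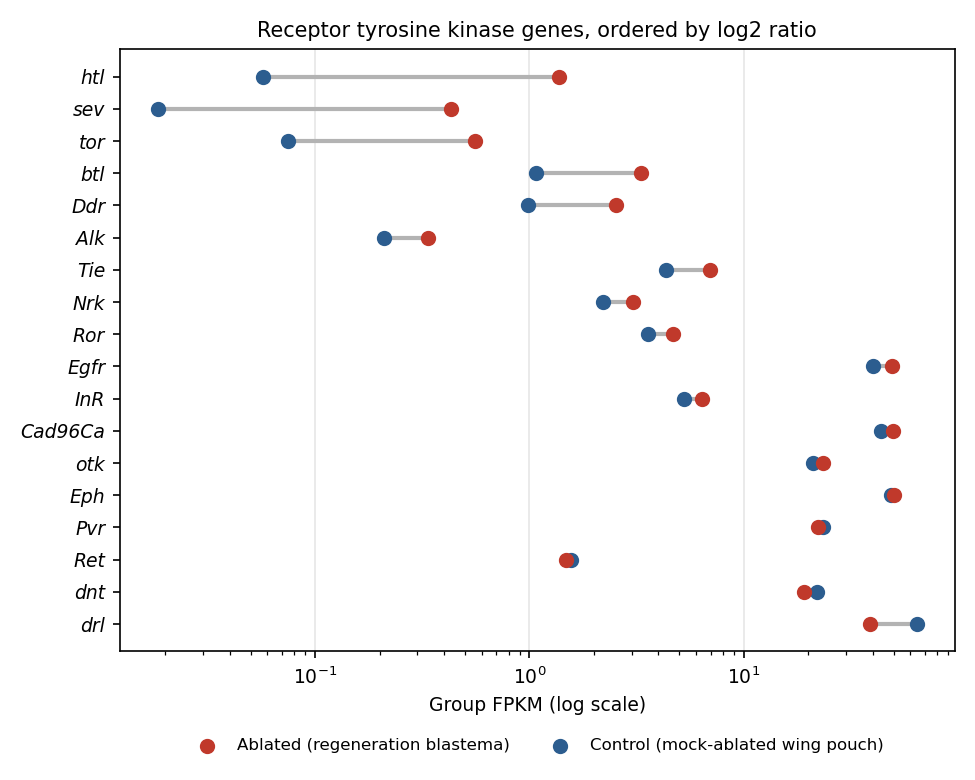
Group FPKM (log axis) of the 18 receptor tyrosine kinase genes above 0 in both groups, ordered from the highest log2 ratio at the top, with red points for the ablated group and blue points for the control group. The large gaps are those of htl, sev and tor, all under 0.1 FPKM in the control group; among the abundant receptors at the right, Egfr and Eph have nearly coincident points and drl lies lower in the ablated group.

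Genes of the cascade below the receptors had smaller log2 ratios than the receptor genes. Of 12 genes of the Ras/ERK cassette, 11 were above 0 FPKM in both groups. Their median log2 ratio was -0.04, with a range from -0.31 to 0.62, and 0 were past the threshold in either direction. Of all genes, 12.5% were past it as higher and 2.6% as lower. With a mean FPKM of at least 1, which these 11 had, the shares were 4.28% and 1.95%. The count of 0 is thus near the share of all genes at such levels. Ras85D, the Ras GTPase itself, had 132 FPKM in the ablated group and 163 FPKM in the control group. The adaptor gene drk had a log2 ratio of 0.18 and the exchange factor gene Sos one of 0.19. The highest ratio of the cassette was that of Gap1, which encodes a negative regulator of Ras. It had 17.9 FPKM in the ablated group and 11.7 FPKM in the control group. The ERK gene rl is listed at 0 in both groups, which can be a failed estimate.

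Nuclear effectors and feedback genes of the cascade were higher without passing the threshold. All 7 of the listed genes found in the table had a higher value in the ablated group, as did 56.3% of all genes. The median log2 ratio of the 7 was 0.28, from 0.04 for edl upward. Of the 7, 0 were past 1.3, against 12.5% of all genes as higher. The Ets activator gene pnt came closest, with 18.7 FPKM in the ablated group and 7.77 FPKM in the control group, a log2 ratio of 1.27. The feedback inhibitor genes Mkp3, an ERK phosphatase, and sty, the antagonist of FGF and EGFR signaling first described in trachea, had log2 ratios of 0.92 and 0.79. In contrast, the repressor gene aop had 48.4 FPKM in the ablated group and 40.3 FPKM in the control group. These genes also respond to EGFR and other receptors, so their values are not particular to FGF signaling.

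Heparan sulfate proteoglycans act as cofactors of FGF ligands. Of 10 genes for their synthesis, core proteins and matrix found in the table, 8 had higher values in the ablated group and 0 were past the threshold, with a median log2 ratio of 0.28. Of all genes, 56.3% had higher values and 12.5% were past it as higher. With a mean FPKM of at least 1 the latter share was 4.28%, so the count of 0 is near it. The highest ratios of the 10 were those of the sulfotransferase genes sfl (6.20 FPKM in the ablated group and 3.11 FPKM in the control group, log2 ratio 0.996) and Hs6st (12.04 FPKM in the ablated group and 6.07 FPKM in the control group, log2 ratio 0.99). The glypican gene dally had 75.0 FPKM in the ablated group and 61.1 FPKM in the control group, and sgl, the UDP-glucose dehydrogenase gene, 73.7 FPKM in the ablated group and 74.7 FPKM in the control group.

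Among 8 listed genes known as regulators from trachea, mesoderm or hypoxia, trh and twi differed in opposite directions. The bHLH-PAS factor gene trh, which activates btl in embryonic trachea, had 3.64 FPKM in the ablated group and 21.8 FPKM in the control group, a log2 ratio of -2.58. By contrast twi, the mesodermal activator of htl and stumps in the embryo, had 4.62 FPKM in the ablated group and 0.25 FPKM in the control group, a log2 ratio of 4.23. These were the only 2 of 8 listed regulators past the threshold, 1 in each direction. Of all genes, 12.5% were past it as higher and 2.6% as lower, so 1 of 8 as higher is no more than the share of all genes. Both genes are also counted in the marker lists below, trh as tracheal and twi as muscle precursor. The partner of Trh, tgo, had a log2 ratio of -0.37, the POU factor gene vvl 0.41, and the hypoxia regulator genes sima and Hph 0.17 and 0.02. The genes tin and sna, under 1 FPKM in both groups, had log2 ratios of 0.84 and 0.07.

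Markers of other cells of the wing disc differed alongside the FGF genes. Of 8 markers of adult muscle precursors, 6 were past the threshold as higher and 0 as lower, with a median log2 ratio of 1.51. Of all genes, 12.5% were past it as higher. Where the higher group reached 1 FPKM, 5 of 7 markers were past it, against 5.73% of all genes. Of these 5, twi, Him, kirre and lmd met that filter only through their ablated value. Their passing says nothing more than the values do. With 1 FPKM added to both groups, 3 of the 8 markers were past the threshold. The 6 past it as deposited were twi, Him, zfh1, Mef2, kirre and lmd. Him had 12.6 FPKM in the ablated group and 0.94 FPKM in the control group, and Mef2 had 12.7 FPKM and 4.41 FPKM. The gene zfh1 had 0.87 FPKM in the ablated group and 0.077 FPKM in the control group (log2 ratio 3.51). A listed locus is shared by kirre with 2 other genes. In discs, the study saw no elevated twi by antibody staining and no elevated zfh1 by enhancer trap. For some such genes it proposes hinge cells that become pouch cells, and it names zfh1 as a hinge gene. The 8 genes summed to 86.1 FPKM in the ablated group and 47.5 FPKM in the control group, and 0 of them were listed at 0. Most of these sums came from rols alone, with 48.0 FPKM in the ablated group and 38.2 FPKM in the control group. Since htl and stumps are themselves used by muscle precursors, these values stand beside theirs, and their part in the result was not tested. In such bulk profiles more cells of a type and more RNA per cell cannot be told apart.

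The listed tracheal markers had lower log2 ratios than btl. Of 9 found in the table, 0 were past the threshold as higher and 2 as lower, namely trh and pio, and the median log2 ratio was 0.00. Of all genes, 12.5% were past it as higher and 2.6% as lower. With a mean FPKM of at least 1 the shares were 4.28% and 1.95%, so 0 as higher is near the share at such levels. The FPKM of the 9 markers summed to 1114 in the ablated group and 1195 in the control group. The largest part came from verm, a chitin deacetylase gene that other ectodermal cells can also express. Several were abundant in control pouch cells, with 514 FPKM for verm, 340 FPKM for pio and 121 FPKM for Gasp. The list therefore does not gauge tracheal cells alone. For an enriched tracheal gene term, the study names stray tracheal cells or raised receptor tyrosine kinase pathway genes as possible reasons. The part of tracheal cells in the btl value was not tested. The air sac gene knrl had 2.34 FPKM in the ablated group and 2.37 FPKM in the control group.

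Notum and glial markers had smaller median ratios than the muscle precursor markers, and hemocyte markers had a median as high, mostly from values under 1 FPKM. Of 6 notum markers, 5 had higher values in the ablated group and 1, tup, was past the threshold, with a median log2 ratio of 0.77 and sums of 91.4 FPKM in the ablated group and 61.9 FPKM in the control group. All 5 glial markers had higher values, with 0 past the threshold, a median of 0.78 and sums of 15.5 FPKM in the ablated group and 9.53 FPKM in the control group. Of all genes, 56.3% had higher values in the ablated group and 12.5% were past the threshold as higher. The notum count of 1 in 6 is near the latter share. Of 7 hemocyte markers, 6 were above 0 FPKM in both groups, with a median log2 ratio of 1.67. Past the threshold were 3 (He, Pxn and Hml), all as higher, against 12.5% of all genes, a share that was larger at low FPKM. Of the 7, 4 had under 1 FPKM in both groups, the defining gene Hml with 0.061 FPKM in the ablated group and 0.013 FPKM in the control group among them. Cuffdiff had too few reads to test Hml or Pxn. The hemocyte list summed to 23.1 FPKM in the ablated group and 26.3 FPKM in the control group. Nearly all of this came from crq, with a log2 ratio of -0.33, and nimC1 is listed at 0 in the control group. The part of these cells in the FGF values was not tested.

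**Figure D5:**
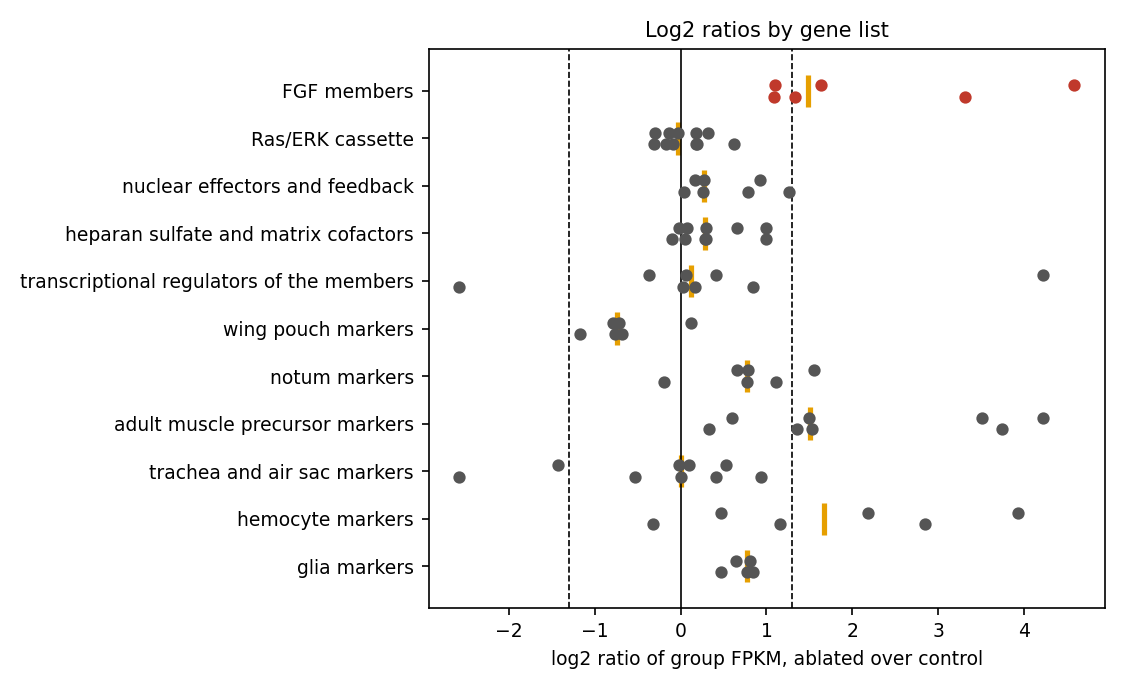
Log2 ratio, ablated over control FPKM, (x) of each gene above 0 in both groups, by list (y), with the 6 FGF genes in red, list medians as orange bars, and dashed lines at 1.3 and -1.3. The FGF genes, the adult muscle precursor markers and the hemocyte markers have medians of 1.49, 1.51 and 1.67, whereas the Ras/ERK cassette and the tracheal markers centre near 0. Of the 7 listed hemocyte markers, 4 were under 1 FPKM in both groups.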

How the data were processed

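Stranded libraries of sorted cells were sequenced by the authors, who trimmed reads, aligned them with TopHat2 (version 0.6 per the labels) to release 5 of the genome (an NCBI build) with at most 2 mismatches, and estimated FPKM with Cufflinks (version 0.0.7) with bias and multi-read correction. Cuffdiff normalized libraries geometrically and gave the deposited FPKM, 1 value per gene and group. Use of strand is not given in the sources used here. The table's fold changes, test statistics, p-values and q-values are the authors' own comparison and were not used. Of the 14239 genes, Cuffdiff had enough reads to test 9320, the 6 FGF genes among them, and 5155 share a listed locus with another gene.

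Ratios were taken with no pseudocount over the 11709 genes above 0 FPKM in both groups. The FGF genes were chosen by symbol. List genes are named where past the threshold or abundant, and other genes where they are among the 3 nearest to htl, stumps, btl or bnl. Of the list genes, Ptp-ER, sotv and dysf were not matched to the table, and some genes stand outside the rule, as examples chosen after their values were seen. The FGF genes and the 11 lists were chosen with earlier results of these data known. The code for ratios and counts, not the calls themselves, was tested on simulated data with known ratios. Release 6 annotation gave gene structure only. No sequence was used. Alternatives were 9 planned and 2 chosen after seeing the data. Python 3.11.15, numpy 2.4.6, pandas 2.3.3 and matplotlib 3.10.9 were used.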

Additional observations from a re-analysis of the deposited data

How the results depend on the processing

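With 1 value per group, no spread between replicates is given, no replicate could be left out, and FPKM under about 1 are the least certain. No paired analysis was possible because the table gives no value for single replicates. All 6 FGF genes remained higher under each alternative scaling. The number past the threshold, 4 as deposited, was 1 (stumps) with a pseudocount of 1 FPKM and 2 (htl and stumps) once each gene was set relative to the median of its level bin. It was 6 after rescaling to 1 total, chosen after seeing the data, where bnl reached 1.37 and pyr 1.38, and 3 with a threshold of 1.5, with a mean FPKM of at least 1 (which removes bnl and htl) or without genes that share a locus (which removes btl). With a pseudocount of 1 FPKM, ths was 1.15 and btl 1.07, and after subtraction of the level median ths was 1.19 and btl 1.21.

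Of all genes, the share past the threshold as higher, 12.5%, became 5.9% and 1.41% with pseudocounts of 0.1 and 1 FPKM, 5.59% after subtraction of the level median, 4.28% with a mean FPKM of at least 1, 5.73% where the higher group reached 1 FPKM and 7.15% among genes with enough reads for the Cuffdiff test. The share as lower, 2.6%, became 1.69%, 1.14% and 4.9% under the first 3 of these. Thus 1462 genes higher and 305 lower became 654 and 574 after subtraction of the level median. The 4 pathway lists had 1 gene past the threshold as higher (twi), and 2 with pnt added under centring, a threshold of 1.0 or rescaling. Of the other receptor tyrosine kinases, 3 became 0 with a pseudocount of 1 FPKM and 1 with either filter on low values or without shared loci. The cause of these shifts was not tested.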
